A study of Mus musculus with 20 samples.

Results

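The 83 genes described here carry the symbols of cytosolic ribosomal proteins. They were followed in mouse cortical neurons with and without the circular RNA ciRS-7, before and after loss of oxygen and glucose. They were chosen by symbol alone (names of the Rpl and Rps series, Rplp0 to Rplp2 and Rpsa), after the Rps6k kinases (10 genes) and symbols marked as pseudogenes (17 genes) were dropped, and they are 83 of the 14700 genes in the deposited tables. By symbol, 49 belong to the large subunit and 34 to the small subunit, and every 1 of the 83 was listed in all 4 tables. The mouse annotation (GENCODE vM21) gives 81 as protein coding and 2, Rps4l and Rps3a2, as processed pseudogenes. The label does not hold for these 2. Among the 81, Rpl7l1 is known from the nucleolus and is a member by symbol alone. Ribosomal proteins whose symbols the rule does not reach (Fau and Rack1) are given beside the members.

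Neurons were taken from cortices at embryonic day 15, grown for 7 days and then kept for 12 h in 1 of 2 media. Normoxic cultures (N) had glucose at 25 mM and pyruvate at 0.2 mM in the incubator, and deprived cultures (OGD, oxygen-glucose deprivation) had medium without added glucose at 1% oxygen. The 4 groups were N_WT, OGD_WT, N_KO and OGD_KO, each of 5 libraries of total RNA, where WT is wild type and KO is the knockout of ciRS-7 (gene symbol Cdr1as, a circular RNA abundant in neurons). All libraries, those labelled wild type included, carry the same strain label, C57BL/6N-Cdr1asem1Nikr, and N and OGD libraries of 1 number share a genotype label and a batch label (1, 2, 3.1, 3.2 or 3.3). Such a pair is taken as 1 culture here. Whether the 5 numbered cultures of a genotype came from separate litters is not given in the sources used here.

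Libraries held between 7071506 and 16658617 reads, recovered from the deposited values. Cdr1as had 545 to 1912 reads in wild-type libraries and 2 to 16 in knockout libraries, so the genotype labels held. Of 10 textbook hypoxia genes 9 rose with OGD in each genotype, led by the glucose transporter gene Slc2a1 (log2 fold change 3.95 in wild type and 3.50 in knockout), and Ndrg1 fell (-0.49 and -0.65). The cultures held all 12 neuron markers and 7 of 8 astrocyte markers, while none of 8 microglia markers was in the tables. The replicates were not equally spread: between replicates 1 and 3 of a group the variance was 1.31 to 1.77 times the sampling noise, against 4.20 to 18.3 times for the other pairs, and results are also given with these averaged into 1 sample where that changes them. Deviations of the N and OGD libraries of 1 culture from their group means correlated at -0.79 to 0.06 over genes, and the variance of a batch's mean was 0.0443 to 0.333 of that for independent libraries. No source used here states an adjustment for batch, the part of such a step in the spread between replicates was not tested, and p-values measure only the spread between these libraries.

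As background, the cytosolic ribosome joins a small subunit, which reads the mRNA, to a large subunit, which forms the peptide bond, and each subunit carries its own set of proteins, most of them encoded by a single active gene with many silent pseudogene copies. Cells make these proteins in near-equal amounts. Their mRNAs begin with a C followed by a run of pyrimidines (the terminal oligopyrimidine or TOP tract), through which the kinase complex mTORC1 and the RNA-binding protein Larp1 control their translation and stability. Hypoxia and loss of nutrients are known to lower mTORC1 activity.

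The first bases of the gene are where that tract lies. Starts are shown for some members that rose in both genotypes and some that did not. RefSeq (GRCm38.p6, the same assembly as mm10) gave a start for 61 of the 83 members. Each line runs from 10 bases before the annotated start and holds the first 20 bases from it, 5′ to 3′ on the gene's strand, so the annotated start is the 11th base, and capitals mark the longest run of 5 or more pyrimidines. Rpl28, Rps6 and Rps27 hold a C and at least 4 pyrimidines from the start and rose with OGD in both genotypes. Rpl15, Rpl38 and Rps15a hold it too and did not pass the test in wild type. Rps4x and Rps19 lack it and rose. Rpl7l1 and Rpl36al lack it and passed in neither genotype. Rpl15, Rpl38 and Rps15a, and also Rps3a2 described below, were chosen for description after their values were seen.
Rpl28, chr7:4792955-4792984, plus strand: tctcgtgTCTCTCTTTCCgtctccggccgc
Rps6, chr4:86857348-86857377, minus strand: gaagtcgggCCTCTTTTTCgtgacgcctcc
Rps27, chr3:90213629-90213658, minus strand: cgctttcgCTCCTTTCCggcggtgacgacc
Rpl15, chr14:18270967-18270996, minus strand: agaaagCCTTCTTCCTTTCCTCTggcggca
Rpl38, chr11:114668570-114668599, plus strand: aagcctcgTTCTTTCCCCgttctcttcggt
Rps15a, chr7:118116128-118116157, minus strand: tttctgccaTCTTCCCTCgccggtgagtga
Rps4x, chrX:102189372-102189401, minus strand: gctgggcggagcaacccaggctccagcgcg
Rps19, chr7:24884582-24884611, plus strand: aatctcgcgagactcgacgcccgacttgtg
Rpl7l1, chr17:46782637-46782666, minus strand: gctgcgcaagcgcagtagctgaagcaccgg
Rpl36al, chr12:69184048-69184077, minus strand: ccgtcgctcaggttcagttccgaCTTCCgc

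A C followed by at least 4 pyrimidines stood exactly at the annotated start in 12 of the 61 members (19.7%), against 2.29% of the 10390 genes of the tables with a start and 2.49% of all 27025 starts. A run of 8 or more pyrimidines within the 30 bases was found in 34.4% of members and 11.1% of the genes of the tables. Over the whole window of 300 bases (250 before the start and 50 from it), searched on both strands, ACGTG was in 29.5% of members and 26.0% of genes of the tables, CCGGAAGT in 19.7% and 8.33%, and AAGATGGC in 8.20% and 4.70%. These are matches of letters, and an annotated start need not be the start used in neurons.

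Which ribosomal protein genes changed when wild-type neurons lost oxygen and glucose was asked first. Nearly all of them were higher: 77 of 83 members rose (92.8%), 1 fell and 5 did not pass the test, with a median log2 fold change of 0.74, which is a 1.67-fold higher level. Over the 14235 genes measured in those libraries, 21.6% were called higher and 22.8% lower (44.3% in all), 51.4% had an unadjusted p under 0.05, and the median was -0.03. The members also moved more evenly than genes at large, with an SD of 0.28 over their log2 fold changes against 0.63 over all genes. Their quartiles were 0.66 and 0.84. The evenness was not particular to them: in wild type the SD was 0.19 over 20 other TOP mRNA genes and 0.21 over 35 proteasome subunits. It was 0.27 over 76 nuclear genes of the respiratory chain and 0.36 over 78 mitochondrial ribosomal protein genes. The test was limma on log2 CPM with Benjamini-Hochberg adjustment over all genes of the table, 5 libraries against 5, called at an adjusted p under 0.05. In 62 of the 77 the 5 deprived libraries all lay above the 5 normoxic ones, a pattern that 13.6% of all genes met. In bulk RNA, a change in RNA per cell and a change in the mix of cells cannot be told apart.

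The response was as broad without ciRS-7. With OGD in knockout neurons 78 members rose (94.0%), 1 fell and 4 did not pass, with a median log2 fold change of 0.80 or 1.74-fold, against 21.0% of all 14375 genes called higher, 19.9% called lower (40.9% in all) and a median of 0.00. The libraries did not overlap in 57 of the 78, against 13.1% of all genes. The genes called higher in both genotypes numbered 76, and no library is shared between these comparisons. When only the cultures labelled batch 3.1 or 3.3 were kept (replicates 2, 4 and 5), 31 members were called higher in knockout neurons, with a median of 0.79, and the share of all genes called higher was 8.28%.

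Both subunits took part. Of the 49 large subunit members 45 rose in wild type and 47 in knockout, with medians of 0.76 and 0.80. Of the 32 protein coding members of the small subunit 31 rose in each genotype, with medians of 0.74 and 0.80. The response of each gene, with its standard error, is shown in the plot of all members.

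**Figure D1:**
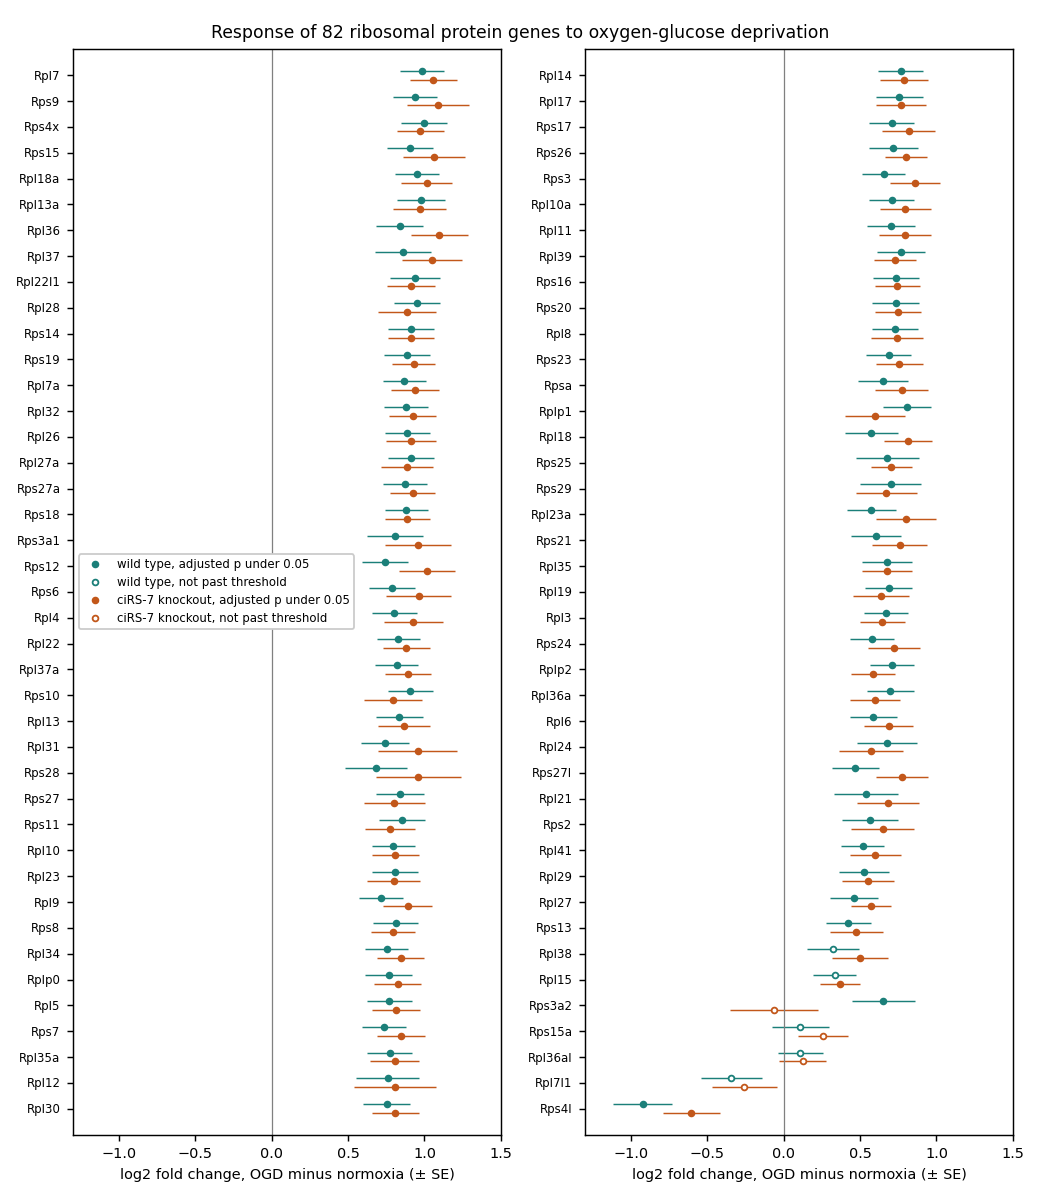
Log2 fold change of 82 of the members, OGD minus normoxia, in wild type (teal) and ciRS-7 knockout (orange), with bars of 1 standard error; open points did not pass an adjusted p of 0.05. Almost all points lie between 0.4 and 1.1 and a few members at the lower right lie near or below 0.

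Among the largest rises in wild type were those of Rps4x (a small subunit protein encoded on the X chromosome), Rpl7, Rpl13a and Rpl28. Rps4x stood at 6.93, 7.03, 6.98, 6.78 and 7.00 log2 CPM in the normoxic wild-type libraries and at 7.68, 8.17, 7.98, 7.64 and 8.24 in the deprived ones. No deprived library was as low as the highest normoxic one, and the log2 fold change was 1.00 (SE 0.15, adjusted p = 2.1e-05). In knockout neurons Rps4x went from 7.05, 7.06, 6.87, 6.54 and 7.11 to 8.03, 7.58, 7.88, 8.005 and 8.01 log2 CPM, again without overlap (0.97, SE 0.15, adjusted p = 8.1e-05).

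Rpl13a, a large subunit protein also known for a role in silencing inflammatory mRNAs, was the member with the highest level per length in normoxic wild type (514 CPM per kilobase of its longest annotated protein coding transcript). The ranking depends on that length: Rpsa had a higher mean in N_WT (9.80 log2 CPM against 9.07) over 1938 bases, against 1047 for Rpl13a. Rpl13a stood at 9.19, 9.01, 9.03, 8.92 and 9.18 log2 CPM in N_WT and at 9.97, 10.18, 10.13, 9.60 and 10.34 in OGD_WT. The groups did not overlap, and the log2 fold change was 0.98 (SE 0.16) in wild type and 0.97 (SE 0.18) in knockout. Rpl7 rose by 0.98 (SE 0.14) and 1.06 (SE 0.16) on the log2 scale, and Rpl28 by 0.95 (SE 0.15) and 0.89 (SE 0.19), in wild type and knockout in that order.

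In knockout neurons the largest rises were those of Rpl36, Rps9, Rps15, Rpl7 and Rpl37. Rpl36 was at 4.19, 4.66, 4.55, 4.76 and 4.14 log2 CPM in N_KO and at 5.44, 5.87, 5.51, 4.97 and 5.99 in OGD_KO, a log2 fold change of 1.10 (SE 0.19, adjusted p = 0.00015). All deprived libraries lay above all normoxic ones. Of the 50-base words of Rpl36 81.1% recur in other annotated genes, and how reads shared between copies were counted is not given in the sources used here. Rps9, which helps to keep decoding accurate, rose by 1.09 (SE 0.20), Rps15 by 1.06 (SE 0.20) and Rpl37 by 1.05 (SE 0.20) in knockout, and by 0.94 (SE 0.15), 0.90 (SE 0.15) and 0.86 (SE 0.18) in wild type.

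Several members are also known for roles outside the ribosome. Rps6 is the substrate of S6 kinase, whose phosphorylation is the usual readout of mTORC1. Its level in N_WT was 7.49, 7.42, 7.23, 7.24 and 7.27 log2 CPM and in OGD_WT 8.03, 8.54, 8.09, 8.04 and 7.87, without overlap (0.79, SE 0.15, adjusted p = 0.00022). In N_KO it was 7.12, 7.35, 7.29, 7.64 and 6.19 and in OGD_KO 8.02, 7.88, 8.05, 8.04 and 8.42 with replicate 5 of N_KO the lowest and no overlap (0.96, SE 0.21, adjusted p = 0.0014). Rpl5 and Rpl11, which with 5S RNA bind and inhibit the p53 ligase Mdm2 when ribosome assembly fails, rose by 0.77 (SE 0.15) and 0.70 (SE 0.16) in wild type and by 0.81 (SE 0.16) and 0.79 (SE 0.17) in knockout. Rps27a, made as a fusion with ubiquitin, rose by 0.87 (SE 0.14) and 0.92 (SE 0.15). Rps3, which also acts in DNA repair, rose by 0.66 (SE 0.14) and 0.86 (SE 0.17), and Rpsa, also known as a laminin receptor, by 0.65 (SE 0.16) and 0.77 (SE 0.17). Rps19, the gene most often mutated in Diamond-Blackfan anaemia, rose by 0.89 (SE 0.15) and 0.93 (SE 0.14).

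The acidic stalk recruits the elongation factors to the large subunit and is built from Rplp0 and copies of Rplp1 and Rplp2. All 3 genes rose in wild type, by 0.77 (SE 0.15), 0.81 (SE 0.16) and 0.71 (SE 0.14), with no overlap of libraries. In knockout Rplp0 rose by 0.82 (SE 0.16) and Rplp2 by 0.58 (SE 0.14). Rplp1 was at 7.71, 7.47, 7.67, 8.16 and 7.19 log2 CPM in N_KO and at 8.18, 8.25, 8.20, 7.78 and 8.78 in OGD_KO, so that culture 4 was lower under OGD and the other 4 were higher. Its rise of 0.60 (SE 0.20, adjusted p = 0.020) was not called without replicate 1, 2, 3 or 5 (adjusted p = 0.057, 0.075, 0.062 and 0.089), and with the culture as a block its adjusted p was 0.068.

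Paralogs are further genes for the same ribosomal protein, and not all of them were called. Rpl22l1 and Rpl22 both rose, Rpl22l1 by 0.94 (SE 0.16) in wild type and 0.91 (SE 0.16) in knockout, Rpl22 by 0.83 (SE 0.14) and 0.88 (SE 0.15). Rps27l, a p53 target, rose by 0.47 (SE 0.15, adjusted p = 0.016) in wild type and 0.77 (SE 0.17) in knockout, beside 0.84 (SE 0.16) and 0.80 (SE 0.20) for Rps27. Its levels were low, at 2.31, 2.45, 2.32, 2.27 and 2.03 log2 CPM in N_WT and 2.60, 2.97, 2.76, 2.71 and 2.68 in OGD_WT, and without replicate 3 the rise in wild type was not called (adjusted p = 0.097).

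Rpl36al did not pass in either genotype. It was at 3.70, 3.77, 3.61, 3.60 and 3.72 log2 CPM in N_WT and at 3.97, 4.01, 3.84, 3.39 and 3.73 in OGD_WT, with overlapping groups and a log2 fold change of 0.11 (SE 0.15, 95% interval -0.20 to 0.42). In knockout the value was 0.12 (95% interval -0.20 to 0.45). Rpl36a rose by 0.70 (SE 0.15) and 0.60 (SE 0.16), with the second not called without replicate 1 (adjusted p = 0.053).

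Rpl7l1, a relative of Rpl7 known from the nucleolus, did not pass either. It was at 5.88, 5.77, 5.90, 5.78 and 6.24 log2 CPM in N_WT and at 5.72, 4.92, 5.49, 5.30 and 6.40 in OGD_WT, lower in 4 of 5 cultures (-0.34, SE 0.20, adjusted p = 0.17). In knockout it was again lower in 4 of 5 cultures (-0.26, SE 0.21, adjusted p = 0.35), while Rpl7 was among the largest rises in both genotypes. The paralog genes Rpl39l, Rpl3l and Rpl10l were not analysed here, and their partners Rpl39 (0.77 and 0.73), Rpl3 (0.67 and 0.65) and Rpl10 (0.80 and 0.81) all rose. Differences between partners were not tested.

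**Figure D2:**
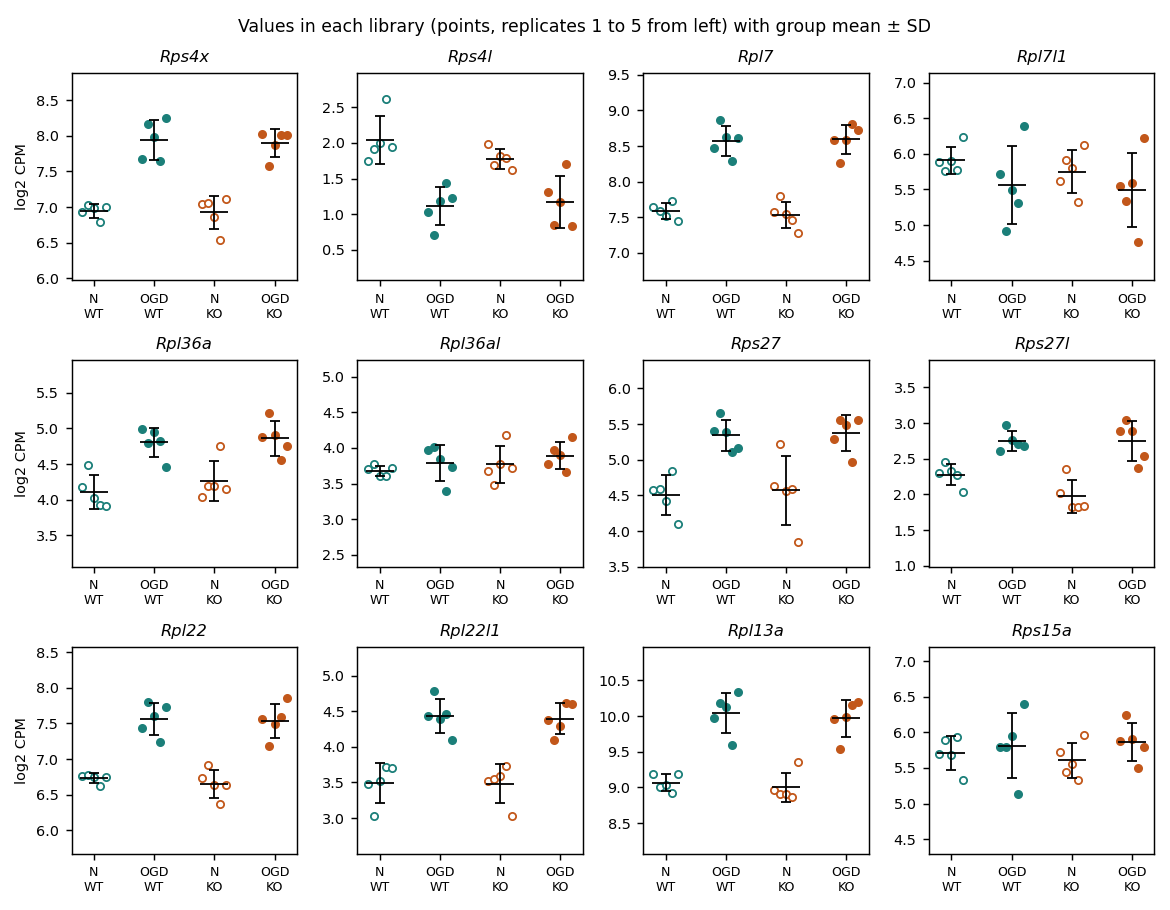
Log2 CPM in each library for 12 members, with the group mean and SD as bars; open points are normoxic, filled points deprived, wild type teal and knockout orange. Rps4x, Rpl7, Rpl22, Rpl22l1 and Rpl13a separate by treatment in both genotypes, Rps4l moves the other way, and Rpl36al, Rpl7l1 and Rps15a overlap.

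The member that fell was Rps4l, on chromosome 6, annotated as a transcribed processed pseudogene related to Rps4x. It had 26 to 61 reads in normoxic and 8 to 28 in deprived libraries. Its values were 1.74, 1.91, 2.00, 2.62 and 1.94 log2 CPM in N_WT and 1.03, 0.71, 1.19, 1.44 and 1.23 in OGD_WT, without overlap and lower in 5 of 5 cultures (-0.92, SE 0.19, adjusted p = 0.00062). In knockout the values went from 1.99, 1.69, 1.82, 1.78 and 1.62 to 1.32, 0.84, 1.17, 1.71 and 0.83, lower in 5 of 5 cultures (-0.61, SE 0.19, adjusted p = 0.014), a call lost without replicate 1 or 3 (adjusted p = 0.054 and 0.064). Of its 50-base words 14.9% recur elsewhere. Rps3a2, on chromosome 14 and also annotated as a processed pseudogene, shares 90.2% of its words with other genes and had 1 to 24 reads per library. It rose by 0.65 (SE 0.21, adjusted p = 0.014) in wild type, a call lost without replicate 2 or 3 (adjusted p = 0.054 and 0.14), and stood at -0.06 (SE 0.29) in knockout, where replicate 5 of OGD_KO had 1 read.

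Among protein coding members, 5 did not pass in wild type: Rpl7l1, Rpl36al, Rps15a, Rpl38 and Rpl15. Rps15a was at 5.70, 5.89, 5.68, 5.93 and 5.33 log2 CPM in N_WT and at 5.80, 5.79, 5.94, 5.14 and 6.40 in OGD_WT, overlapping, with a log2 fold change of 0.11 (95% interval -0.28 to 0.50). In knockout it was 0.26 (95% interval -0.08 to 0.59). Rpl38, known for a role in translating Hox mRNAs, had 0.32 (SE 0.17, adjusted p = 0.13) in wild type and 0.50 (SE 0.18, adjusted p = 0.035) in knockout, the second lost without replicate 1, 2 or 3 (adjusted p = 0.10, 0.098 and 0.068). Rpl15 had 0.33 (SE 0.14, adjusted p = 0.059) in wild type, although its 5 deprived libraries (6.65 to 7.22 log2 CPM) all lay above its 5 normoxic ones (6.45 to 6.58). In knockout it rose by 0.37 (SE 0.13, adjusted p = 0.033), a call lost without replicate 1 or 3 (adjusted p = 0.16 and 0.18) and with the culture as a block (adjusted p = 0.058).

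The members were also split by the TOP letters at the annotated start. Of the 12 members that hold them 9 rose in wild type and 11 in knockout, with median log2 fold changes of 0.74 and 0.77. Of the 49 members with a start that lacks them 47 rose in each genotype, with medians of 0.74 and 0.81. These 49 include members with a long pyrimidine run near the annotated start, such as Rpl27a (20 bases), Rpl7a (17) and Rpl13a (14). The split follows letters at the exact annotated base, so it need not part members with a TOP tract from those without. Members are also short, with a median transcript of 937 bases against 3204.5 over the wild-type table, and over all genes of the tables the OGD response had a Spearman rho with transcript length of -0.06 in wild type and -0.08 in knockout (13832 and 13966 genes, which are not independent). Over the 83 members rho was -0.14 and -0.07.

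As a share of all recovered reads, the members together made up 0.958, 0.979, 0.887, 0.889 and 0.852% in the N_WT libraries and 1.21, 1.52, 1.28, 1.01 and 1.38% in OGD_WT, means of 0.913% ± 0.053 and 1.28% ± 0.19 (SD, n = 5 each). In N_KO the share was 0.864, 1.00, 0.862, 0.851 and 0.811% and in OGD_KO 1.30, 1.13, 1.31, 1.29 and 1.21%, means of 0.878% ± 0.073 and 1.25% ± 0.076 (SD, n = 5 each). The share was higher under OGD in 5 of 5 cultures of each genotype, by 1.13 to 1.62 times in wild type and 1.13 to 1.52 times in knockout. The share taken by mitochondrial transcripts rose alongside, from 15.2% ± 1.4 to 24.8% ± 4.4 in wild type and from 16.8% ± 2.5 to 27.3% ± 5.9 in knockout (SD, n = 5 each), with a highest value of 37.5% in replicate 5 of OGD_KO. Most of that share was the mitochondrial ribosomal RNA mt-Rnr2, which alone held 32.0% of reads in replicate 5 of OGD_KO. Mitochondrial transcripts other than mt-Rnr1 and mt-Rnr2 went from 2.23% ± 0.17 to 2.56% ± 0.34 in wild type. In knockout they went from 2.36% ± 0.52 to 2.93% ± 0.51 (SD, n = 5 each). Without mitochondrial transcripts in the total the members' share went from 1.08% to 1.70% in wild type and from 1.06% to 1.73% in knockout.

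The scale matters for the size of the response. The deposited values are scaled so that most genes stay level, and when libraries were scaled to their total reads instead, the median of all genes moved to -0.30 in wild type and -0.28 in knockout. On that scale 58 members were called higher and 2 lower in wild type (median 0.48) and 59 higher and 2 lower in knockout (median 0.52), while over all genes 1625 were higher and 5744 lower in wild type and 1479 and 5289 in knockout, against 3069 and 3244, and 3021 and 2863, on the deposited scale. Relative to the median of all genes, the members' median was higher by 0.77 in wild type and 0.80 in knockout on the deposited scale, and by 0.78 and 0.80 on the scale of total reads.

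The responses of the 2 genotypes were then set side by side. Across the 83 members the response in wild type and in knockout had a Pearson r of 0.88 and a Spearman rho of 0.78, given as a description, since the points share libraries within a genotype. On the separately scaled tables the response was larger in knockout for 63 members, and among protein coding members the largest gap between genotypes was 0.31. On the joint scale used for the interaction it was larger in knockout for 55 of 83, for 24 without knockout replicate 5 and for 34 without wild-type replicate 4. Whether the response differed was tested as an interaction over all 20 libraries with the culture as a block (limma, reads on 1 joint scale). No member passed (0 of 83 at an adjusted p under 0.05, and 0 at an unadjusted p under 0.05), where 0.0% of all 13688 genes were called and 0.723% had an unadjusted p under 0.05. The 95% interval of the difference stayed within 1 log2 unit for 81 members and within 0.5 for 21, so smaller differences were not detectable with these libraries.

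**Figure D3:**
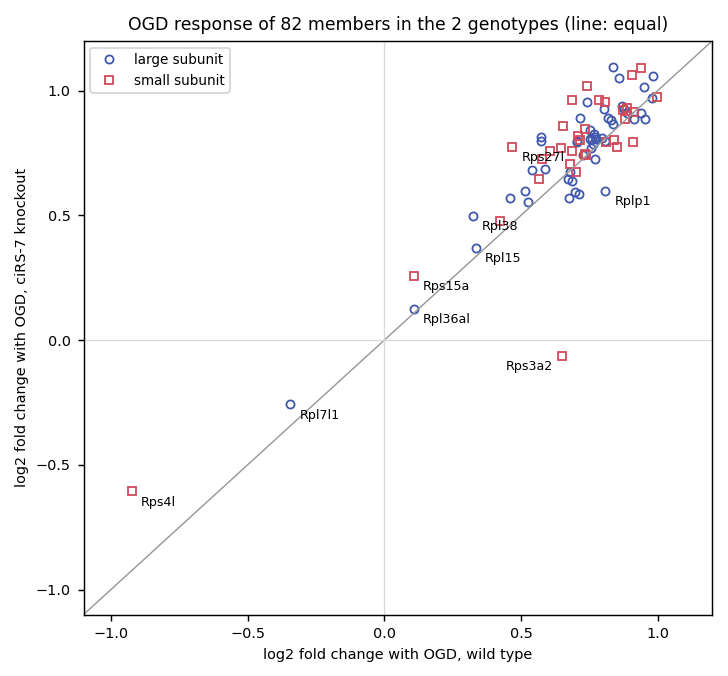
Log2 fold change with OGD in wild type (horizontal) and ciRS-7 knockout (vertical) for 82 of the members, large subunit as circles and small subunit as squares, with the line of equal response. Most points form 1 cloud between 0.4 and 1.1, Rps4l and Rpl7l1 lie below 0 in both genotypes, and Rps3a2 lies off the line.

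The effect of the knockout itself on these genes was not detectable. In normoxia 0 of 83 members passed, against 0.0353% of all 14152 genes (0.0212% higher and 0.0141% lower), and 0 had an unadjusted p under 0.05, against 1.81% of all genes (limma, 5 libraries against 5). The log2 fold changes, knockout minus wild type, ran from -0.29 for Rps27l to 0.31 for Rpl24, a large subunit gene, with a median of -0.02. Under OGD 0 of 83 passed, against 0.0282% of 14185 genes (0.0211% higher and 0.00705% lower), with 0 at an unadjusted p under 0.05, against 1.78%. The values ran from -0.56 for Rps3a2 to 0.20 for Rps28, a small subunit gene, with a median of 0.03. The low end rests on 1 library: without replicate 5 of OGD_KO, where Rps3a2 had 1 read, its value was -0.22 and the lowest of any member -0.24. The 95% intervals lay within 0.5 log2 units of 0 for 69 members in normoxia and 72 under OGD. Over all genes unadjusted limma p under 0.05 was rarer (1.81% and 1.78%, and 0.723% for the interaction) than exact p-values give without any effect. The tests of the knockout may thus be too strict, and the cause was not tested. For the interaction the culture block had a consensus correlation of -0.19. Without that block 156 of 13688 genes had an unadjusted limma p under 0.05, against 99 with it. Voom on recovered reads gave 0 members in both conditions. When libraries were weighted by how closely they follow the fit, 1 member was called in normoxia (1.2%) and 13 under OGD (15.7%, 7 higher and 6 lower), both below the shares of all genes called in that way (6.54% and 33.5%). Rpl24 and Rps28 were named as the ends of the range after their values were seen.

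**Figure D4:**
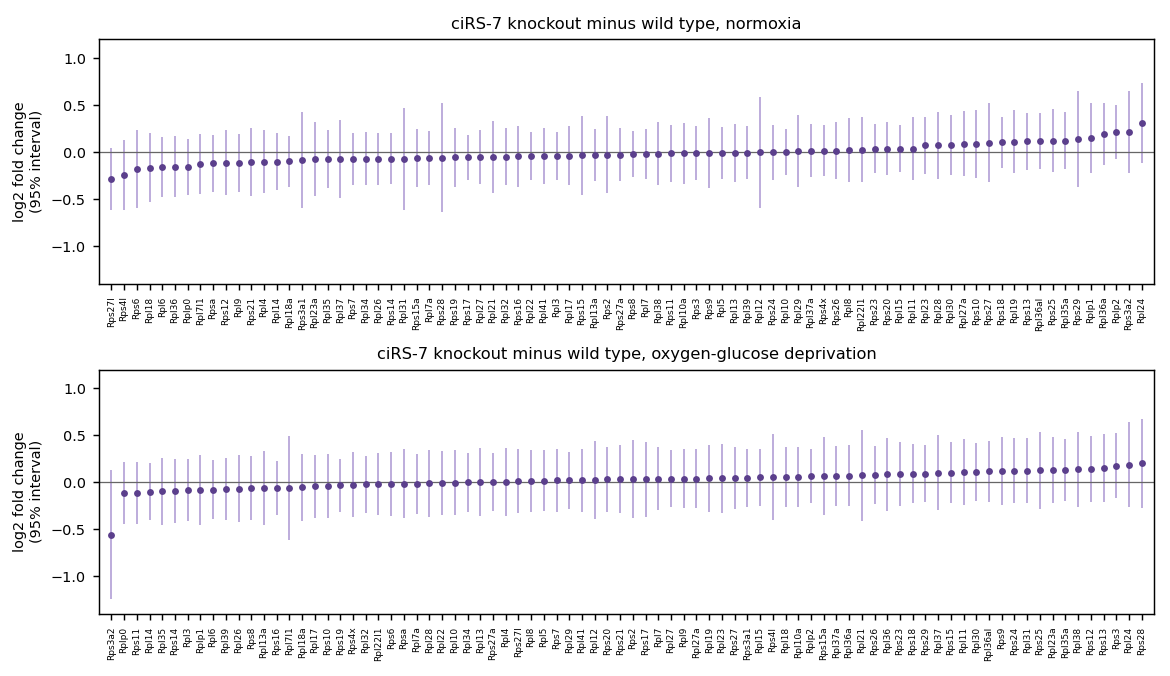
Log2 fold change, ciRS-7 knockout minus wild type, for 82 of the members in order of size, in normoxia (top) and under OGD (bottom), with 95% intervals. The intervals of all members drawn hold 0, and the values lie between -0.29 and 0.31 in normoxia and between -0.56 and 0.20 under OGD.

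The ribosomal proteins outside the symbol rule were measured beside the members. Fau, made as a fusion with a ubiquitin-like protein, rose by 0.84 (SE 0.15) in wild type and 0.77 (SE 0.16) in knockout. Rack1, a scaffold on the small subunit, rose by 0.83 (SE 0.15) and 0.87 (SE 0.14). Of 20 other genes known for TOP mRNAs, mostly elongation and initiation factors, 17 rose in wild type and 16 in knockout and none fell (medians 0.58 and 0.58). Eif4b, an initiation factor, led them with 0.97 and 0.96, and on the scale of total reads 5 and 4 of the 20 rose. Without replicate 3, 10 of the 20 rose in wild type, and with replicates 2, 4 and 5 alone 1 rose in knockout.

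Regulators of these mRNAs were counted as well. Of 18 mTORC1 and Larp1 genes 5 rose and 3 fell in wild type, and 5 rose and 2 fell in knockout, shares near those of all genes (21.6% higher and 22.8% lower, and 21.0% and 19.9%). Ddit4, a stress-induced inhibitor of mTORC1, led in wild type (1.79, SE 0.21) and Eif4ebp1, which blocks the cap-binding factor eIF4E, in knockout (1.70, SE 0.19). The largest falls were those of Mlst8, an mTORC1 subunit, in wild type (-0.49) and Tbc1d7, part of the TSC complex, in knockout (-0.54). The falls were not called when replicates 1 and 3 were averaged into 1 sample (0 of 18 in either genotype). Of 10 genes of the Mdm2 and p53 surveillance of ribosome assembly 6 rose and 0 fell in each genotype, led by Nop53, a nucleolar protein, in wild type (1.08) and Mdm2 in knockout (1.01).

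Genes that build the ribosome were counted next. Of 82 biogenesis factors 27 rose and 3 fell in wild type (32.9% and 3.66%, median 0.17). In knockout 29 rose and 5 fell (35.4% and 6.10%, median 0.24). For all genes the shares were 21.6% higher and 22.8% lower in wild type, and 21.0% and 19.9% in knockout. Rrp15, a factor of the large subunit precursor, had the largest rise in both (1.67 and 1.70), and Rcl1 (-0.74) and Rrp7a (-0.53), both factors of the small subunit precursor, the largest fall in wild type and knockout. Without replicate 3 the biogenesis counts were 16 higher and 2 lower in wild type, and 18 and 0 in knockout. Without replicate 1 they were 19 and 3 in knockout. Those fits called 2114 higher and 2199 lower of all 14235 genes in wild type. Of all 14375 genes in knockout they called 2062 and 1963 without replicate 3, and 2258 and 2086 without replicate 1. Of 14 RNA polymerase I genes 5 rose and 1 fell in wild type and 6 rose and 1 fell in knockout, led by Taf1d (1.25 and 1.30), with Taf1b the fall (-0.45 and -0.44). With replicates 1 and 3 averaged these counts were 2 and 0, and 4 and 0. Of 15 genes listed as chaperones and importers of ribosomal proteins 3 rose and 1 fell, and 4 rose and 1 fell. The largest rise was that of Hjurp (1.16 in each), which is known as a centromere histone chaperone.

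Of 23 genes that rescue or store ribosomes 4 rose and 2 fell in wild type (17.4% and 8.70%). In knockout 4 rose and 1 fell (17.4% and 4.35%). Over all genes 21.6% rose and 22.8% fell in wild type, and 21.0% and 19.9% in knockout. Without replicate 3 the wild-type counts of the 23 were 2 and 1. Ifrd2, which blocks idle ribosomes, rose by 0.94 (SE 0.19) and 1.03 (SE 0.24), and Habp4, another factor bound to idle ribosomes, fell by 1.04 (SE 0.17) and 1.08 (SE 0.15) on the log2 scale.

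Other large protein complexes gave a background for the counts above. Of 78 mitochondrial ribosomal protein genes 6 rose and 12 fell in wild type (median -0.06), and 9 rose and 8 fell in knockout (median 0.01). The largest changes were those of Mrps30 (0.80 and 0.86), Mrpl36 (-1.08 in wild type) and Mrpl41 (-0.90 in knockout). Of 76 nuclear genes of the respiratory chain 5 rose and 4 fell in wild type and 5 rose and 1 fell in knockout, with Cox7a2l highest (0.76 and 0.59) and Ndufb3 lowest (-0.90 and -0.77). Of 35 proteasome subunits 0 rose and 1 fell, and 1 rose and 1 fell. Without replicate 3 the mitochondrial ribosome counts were 2 higher and 5 lower in wild type and 4 and 3 in knockout, and those of the respiratory chain 3 and 2, and 1 and 1. On the scale of total reads 2 mitochondrial ribosomal genes rose and 32 fell in wild type, and 2 and 24 in knockout.

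**Figure D5:**
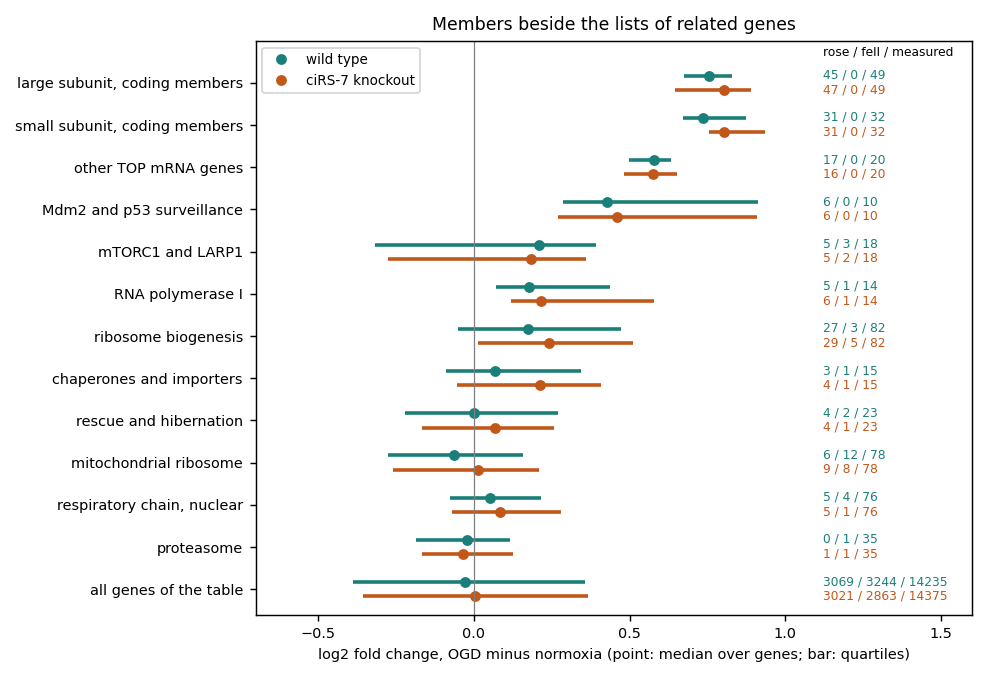
Median log2 fold change with OGD (points) and quartiles over genes (bars) for the members and each list of related genes, in wild type (teal) and ciRS-7 knockout (orange), with counts of genes that rose, fell and were measured. Both subunits lie near 0.8, other TOP mRNA genes near 0.6, and the mitochondrial ribosome and proteasome near 0.

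Marker genes of the cell types that such cultures can hold were also measured, and they do not tell a change in cell numbers from one in RNA per cell. Of the neuron markers 0 rose and 8 fell in each genotype, with Slc17a7, a glutamate transporter of excitatory neurons, lowest (-1.69 and -1.62), and their summed level ran from 5045 to 6468 CPM in N_WT and from 3187 to 5895 in OGD_WT. In knockout the sum ran from 5478 to 5714 in normoxia and from 3307 to 4765 under OGD. All 12 proliferation markers rose in both genotypes, led by Ccnb1 (1.49 and 1.58), and their sum ran from 584 to 776 CPM in N_WT, 1105 to 1975 in OGD_WT, 547 to 906 in N_KO and 1335 to 1782 in OGD_KO. Of 7 astrocyte markers 4 rose and 1, Gfap, fell (-0.47) in wild type, and 3 rose and 0 fell in knockout. The sum of these ran from 1045 to 1361 CPM in N_WT, 1718 to 2123 in OGD_WT, 825 to 1486 in N_KO and 1366 to 2191 in OGD_KO, with Slc1a3 leading (1.08 and 0.96). Of 7 oligodendrocyte lineage markers 1 rose and 2 fell, and 3 rose and 0 fell, and Mog and Mag were not in the tables. The largest rises were those of Cspg4 (0.66 in wild type) and Olig2 (0.53 in knockout), and the largest fall that of Mbp (-0.56 in wild type). Without replicate 3 the oligodendrocyte lineage counts were 1 and 0, and 0 and 0, and without replicate 1 they were 0 and 0 in knockout. Endothelial and mural markers had a summed level of at most 7.53 CPM, with Cldn5, Pecam1, Flt1 and Rgs5 not in the tables, where Kdr rose in each genotype (0.60 and 1.11) and Pdgfrb fell in wild type (-0.66), neither of them called there without replicate 3. The part of these values in the rise of the ribosomal protein genes was not tested.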

How the data were processed

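Total RNA was sequenced from 20 libraries, 5 in each of 4 groups. The authors deposited 4 tables of log2 CPM (read counts scaled to library size, on a log2 scale, per the file headers and values), each holding the 10 libraries of 1 comparison and normalized separately, so levels set side by side across tables are on slightly different scales. The submitters' processing notes name the build mm10, and the aligner and the counting of reads are not given in the sources used here. In the deposited log2 values each gene's extremes within a group of 5 lay on the 10th and 90th percentile (weights 0.6 and 0.4 of the extreme and its neighbour). Undoing this gave whole reads, within 0.05, for at least 99.91% of low values, against 45.45 to 92.77% as deposited, and reads agreed between tables for at least 99.98% of genes. This step was inferred from the values and is stated in no source used here.

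Each comparison was fitted in its own table by limma's linear model (version 3.58.1, run under R 4.3.3), whose moderated variances follow a trend in level. The test was two-sided and had no block, with Benjamini-Hochberg adjustment over all genes and calls at an adjusted p under 0.05. All p-values printed are from this limma fit unless another is named. The interaction used the recovered reads of all libraries on a joint TMM scale with a prior count of 2 and the culture as a block. The model was tested on simulated data. Shares, lists and figures were computed in Python 3.11.15 with pandas 2.3.3. Gene types, lengths (the longest transcript, protein coding where annotated) and shared 50-base words come from GENCODE vM21.

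N and OGD libraries with the same genotype label and number were taken as 1 culture, and counts of cultures rest on this pairing. Such pairs share a batch label, but replicates 2 and 4 of a genotype share 1 too, so only the number pairs them. The deviations of such pairs correlated at -0.79 to 0.06, while the best match with another number reached 0.10 to 0.22. Members were matched by symbol, with 10 Rps6k and 17 pseudogene symbols dropped, and Rps19bp1 was not matched. The members, lists and tests were chosen with earlier results of these data known. Named genes are, per comparison, the 5 largest rises and falls among members called without overlap, members with known further roles or paralogs, and the largest called rise and fall of each list. Values of some genes that this rule names are not reported here. Alternatives tried were the clipping kept, total count and median scaling, a low level filter, other prior counts, library weights, batch terms, the replicate block, voom, replicates 1 and 3 averaged, and each replicate left out. Voom and the averaging were chosen after seeing the data.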

Additional observations from a re-analysis of the deposited data

Results flagged for a closer look

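In 140 groups of 5 libraries (34 named members and the members' share of reads, in 4 groups each), the gap between the most extreme library and its nearest neighbour, over the group's range, was compared with Dixon's critical value of 0.71. It was passed in 9 groups (6.43%), where chance passes about 1 in 20. Rpl10 was low in replicate 2 of OGD_KO (7.44 log2 CPM, others 7.92 to 8.08), and Rpl38 was high in the same library (5.99, others 5.13 to 5.34). Rpl13a was high in replicate 5 of N_KO (9.36, others 8.86 to 8.97). Rpl36a was high in replicate 4 of N_KO (4.76, others 4.03 to 4.19). Rpl39 was low in replicate 5 of OGD_KO (4.80, others 5.09 to 5.18). Rpl22 was low in replicate 4 of N_WT (6.62, others 6.75 to 6.78), and Rpl7l1 was high in replicate 5 of N_WT (6.24, others 5.77 to 5.90). Rps27a was high in replicate 2 of OGD_WT (8.13, others 7.59 to 7.75). The members' share of reads was high in replicate 2 of N_KO (1.00%, others 0.811 to 0.864%).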

How the results depend on the processing

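With OGD, leaving out each replicate in turn gave 69 to 80 changed members in wild type (68 to 78 rose) and 70 to 78 in knockout (70 to 77 rose), and 0 to 0 for both knockout effects and the interaction. Over all genes these fits called 4313 to 6993 of 14235 in wild type and 4025 to 5923 of 14375 in knockout. The fewest were called without replicate 3 in each genotype, and the main fit called 6313 and 5884. With each replicate left out the members' share of reads ran from 0.897 to 0.928% in N_WT and 1.22 to 1.35% in OGD_WT. It ran from 0.847 to 0.895% in N_KO and 1.24 to 1.28% in OGD_KO. Without mitochondrial transcripts in the total it was 1.08, 1.70, 1.06 and 1.73% in that order. With replicates 2, 4 and 5 alone 31 members changed in knockout, where 16.3% of all genes did. Library weights called 1 member changed by the knockout in normoxia and 13 under OGD, where they called 6.54% and 33.5% of all genes, and reversed Rps3a2 (0.71) and mt-Nd3 (1.06) with OGD in knockout. The cause was not tested. With the replicate block 77 members rose in wild type and 74 in knockout, 0 changed between genotypes, and the interaction without the block gave 0. The block ended the calls of Rplp1, Rpl15, Rps13 and Rpl24 in knockout. Of all genes it called 2769 higher in wild type and 2491 in knockout, against 3069 and 3021 in the main fit. With the clipping kept 79 rose and 2 fell in wild type and 78 and 1 in knockout. That setting called 4014 of all genes higher and 4266 lower in wild type, and 4115 and 3909 in knockout. With replicates 1 and 3 averaged 71 rose and 1 fell, and 72 and 0. The averaging called 2295 of all genes higher and 2409 lower in wild type, and 2202 and 2076 in knockout. Over named members and settings the call was the same in 1200 cases, weaker in 49, stronger in 17 and reversed in 1. Counts over the lists moved by over 1.5 times in 140 cases and not in 506. The planned fits with edgeR and DESeq2 were not run, although reads were recovered from the deposited log2 CPM, and the interaction with the clipping kept gave no value. Depth limits Rps4l and Rps3a2, with 1 to 61 reads per library.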
